A study of Sus scrofa with 30 samples.

Results

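Extracellular proteolysis was followed through 67 genes in single pig embryos of 3 ages, Day 8, Day 10 and Day 12 after insemination, while the conceptus grows from a small sphere into a filament. The genes were taken by symbol: the cathepsins (CTS), the matrix metalloproteases (MMP), the ADAM and ADAMTS metalloproteases, the tissue inhibitors of metalloproteases (TIMP), the serpins, the cystatins, the Kunitz inhibitors SPINT1 and SPINT2, the serine protease TMPRSS2, and the single genes PLAU, PLAUR, PLAT, ST14, PRSS8 and A2ML1. They made up 67 of the 13103 genes in the table of all embryos, with 42 proteases, 24 inhibitors and 1 receptor (PLAUR).

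Each of the 30 libraries held the mRNA of 1 whole embryo, with 5 female and 5 male embryos on each day. All embryos came from synchronized crossbred gilts (German Landrace and Pietrain) inseminated by a single boar, and were flushed from the uterus. The groups were therefore Day 8 female, Day 8 male, Day 10 female, Day 10 male, Day 12 female and Day 12 male, with no treatment or genotype difference beside day and sex, and sex was called by qPCR on the same embryo. The 30 embryos came from 12 gilts at most, each slaughtered on a single day and in equal numbers per day, so some embryos of a day were littermates. The labels do not tie an embryo to a gilt, and the tests count all embryos of a day as independent. The p-values below measure the spread between these embryos and not that between gilts. A difference between days cannot be told apart from a difference between the gilts of those days.

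Proteases cut the matrix and cell surface proteins that hold cells in place, release growth factors, and break down material that a cell has taken up. Most are made as inactive precursors, and each class has its own inhibitors: cystatins block cysteine cathepsins, TIMPs block metalloproteases, and serpins and Kunitz-type proteins block serine proteases. In the pig, whose conceptus does not invade the uterine wall, such enzymes and inhibitors are known from both the conceptus and the uterus around attachment. The set is named for secreted proteins, but not all of its members leave the cell. Most cathepsins are lysosomal enzymes that can be released, the ADAMs and ST14, TMPRSS2, PRSS8, MMP14, MMP15 and MMP25 are held at the cell membrane, PLAUR is a receptor, several clade B serpins stay in the cytosol, and SERPINH1 is a collagen chaperone of the endoplasmic reticulum that inhibits no protease. SERPINB5 and SERPINF1 also lack protease inhibition in the usual sense.

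Library totals ranged from 6068212 to 34002508 counts, with a median of 22202723. Levels are CPM, a gene's counts scaled to the library total after TMM correction. They are given with the SD between the 10 embryos of the same day, and log2 fold changes carry their standard error. A member was called between days where the adjusted p of edgeR's quasi-likelihood test was under 0.001 and the log2 fold change was beyond 1 in either direction. Embryos are named as in the labels (day, sex and number). Over all genes, the Day 12 females d12_f_245 (the library of 6068212 counts) and d12_f_271 stood apart from the other Day 12 embryos, and d10_f_454 and d10_m_453 from the other Day 10 embryos. The Day 10 pair also held the 2 highest Day 10 values in 25 members (37.3%), against 15.1% of all genes, and calls that rest on either pair are given without it. On Day 10, d10_m_435 and d10_f_433 came next in mean distance over all genes, at 88.0 and 85.8. The pair d10_m_453 and d10_f_454 was at 96.9 and 93.6. No fit left out d10_m_435 and d10_f_433 together. All 8 trophectoderm markers, 6 epiblast markers and 6 hypoblast markers were found, and their levels moved between days as well. The summed trophectoderm markers were at 20635 to 25278 CPM on Day 8, 32850 to 50136 CPM on Day 10 and 9338 to 27863 CPM on Day 12, the epiblast markers at 273 to 416, 377 to 985 and 853 to 1706 CPM, and the hypoblast markers at 298 to 456, 161 to 221 and 171 to 1458 CPM. The trophectoderm sum was mainly KRT8 (means of 12248, 24502 and 10225 CPM on the 3 days) and KRT18 (10075, 16628.5 and 3585 CPM). CDX2 also fell from Day 10 to Day 12 (214 to 79.9 CPM), and TFAP2C stayed level (90.9 and 91.0 CPM). In that interval HAND1 (77.1 to 1065 CPM), GATA2 (327 to 425 CPM), GATA3 (121.3 to 285 CPM) and TFAP2A (50.6 to 104 CPM) rose, against the sum. The epiblast sum was mainly DNMT3B (means of 291, 341 and 751 CPM on the 3 days), joined later by DPPA5 (3.87, 187 and 511 CPM). The epiblast gene POU5F1 fell (30.9, 14.4 and 1.72 CPM). NANOG, PRDM14 and SOX2 fell too and were at 3 counts or fewer in every Day 12 embryo. Of the hypoblast genes, GATA6 fell (142, 55.5 and 44.5 CPM). The others rose from Day 10 to Day 12, PDGFRA (58.1 to 332 CPM) and HNF4A (33.5 to 163 CPM) by the most CPM. Of 8 endometrial markers 5 were listed, and their summed level was 0.951 to 5.54 CPM on Day 8, 0.925 to 14.5 CPM on Day 10 and 8.13 to 29.4 CPM on Day 12. Of 8 blood and leukocyte markers 3 were listed, at 0.106 to 1.43, 1.23 to 8.73 and 1.74 to 18.4 CPM on the 3 days, so both lists reached higher values on Day 12, as did many members. The part of these 5 marker lists in the results was not tested. In whole embryos, fewer cells of a type and less RNA per cell cannot be told apart.

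From Day 8 to Day 10, 23 of the 67 members rose and 7 fell. Over all 13103 genes, 9.88% were called higher and 4.2% lower in that interval (14.1% in all). From Day 10 to Day 12, 27 members rose and 7 fell, against 14.9% and 8.39% of all genes (23.3% in all). Day 12 over Day 8 gave 41 members higher and 8 lower, where 22.0% of all genes were higher and 10.4% lower (32.5% in all). The median log2 fold change of the members was 0.68, 0.87 and 1.78 in the 3 comparisons, and that of all genes was 0.03, 0.04 and 0.09. Without d10_f_454 and d10_m_453 the first comparison gave 14 members higher and 7 lower, where 8.01% of all genes were higher and 3.52% lower (11.5% in all). The 2 intervals share the Day 10 embryos, so they are not independent of each other.

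The highest mean level fell on Day 8 for 9 members, on Day 10 for 18 and on Day 12 for 40. The values of the 2 days did not overlap at all for 20 members between Days 8 and 10, for 18 between Days 10 and 12 and for 29 between Days 8 and 12. Among all genes, 22.0%, 16.6% and 31.7% were without overlap.

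**Figure D1:**
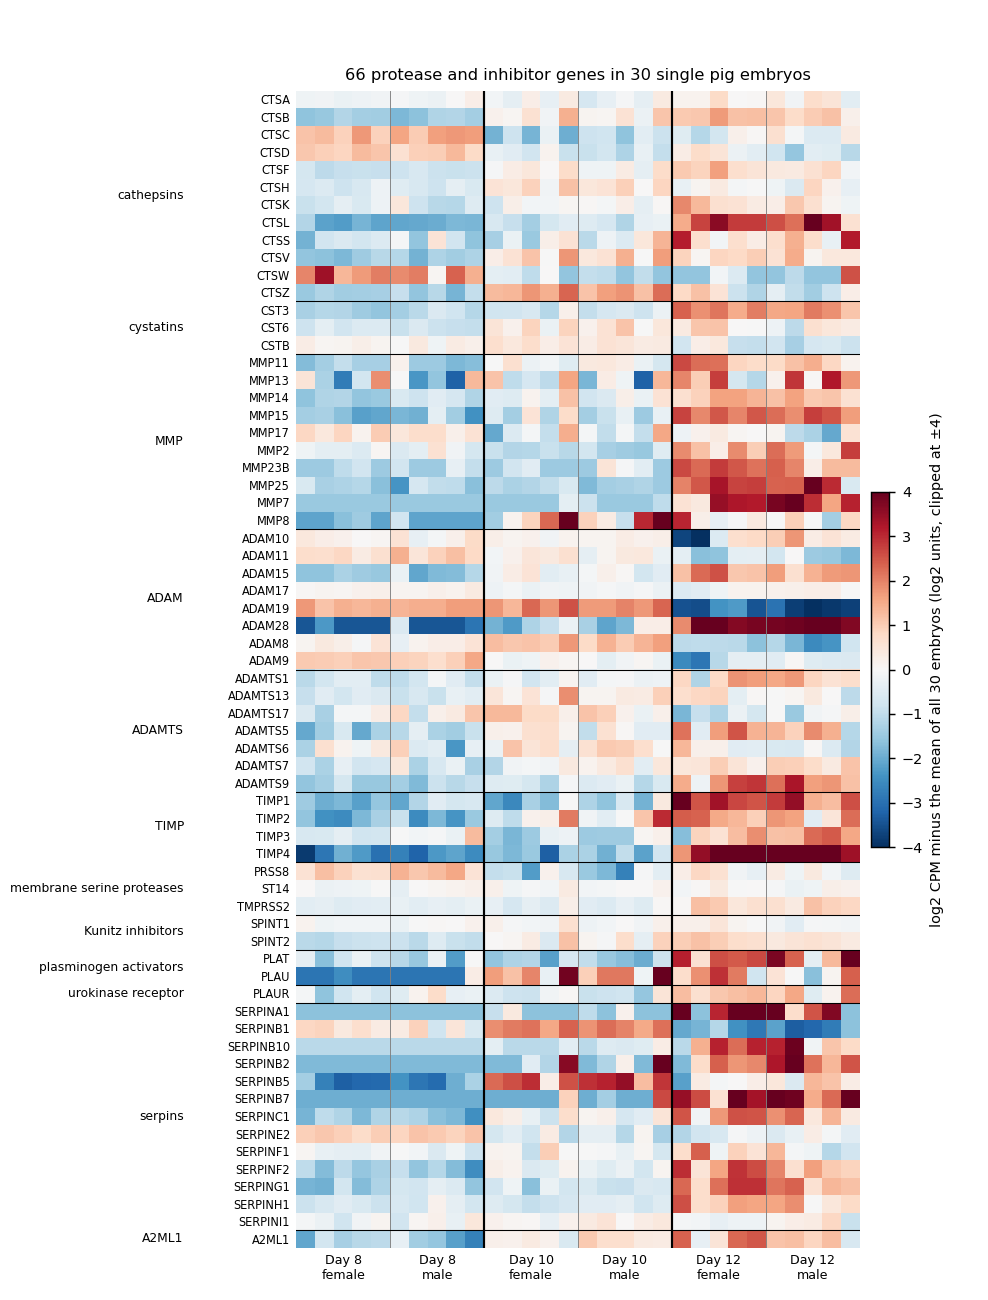
Each row is 1 of 66 of the 67 members, grouped by family, and each column 1 of the 30 embryos, 5 female and 5 male per day; color gives log2 CPM minus that gene's mean over all embryos, clipped at 4 log2 units in either direction. TIMP4, ADAM28 and CTSL are red on Day 12, as is MMP25 except in d12_m_307, and ADAM19 is blue on Day 12.

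Among the 12 cathepsins, 6 rose and 3 fell from Day 8 to Day 10, and 1 rose and 1 fell from Day 10 to Day 12. CTSD, the lysosomal aspartic protease, was high in every Day 8 embryo, with a lowest, median and highest value of 2032, 2617 and 3276 CPM. On Day 10 these values were 559, 792 and 1469 CPM, below all Day 8 embryos. CTSD fell by 1.59 ± 0.21 on the log2 scale (adjusted p = 2.47e-07), from 2667 ± 386 to 884 ± 268 CPM. On Day 12 the embryos spread from 451 over 990 to 2192 CPM, overlapping both earlier days, and the step from Day 10 did not pass the test.

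CTSL, a cysteine protease of lysosomes that is also secreted, followed another course. Its lowest, median and highest values were 147, 170 and 306 CPM on Day 8 and 270.9, 440 and 573 CPM on Day 10, with d08_f_105 the only one inside the Day 10 range. On Day 12 they were 1053, 4689 and 12690 CPM, above every earlier embryo. The log2 fold change was 1.23 ± 0.27 in the first interval (adjusted p = 0.000268) and 3.60 ± 0.29 in the second (adjusted p = 4.43e-12). Without d10_m_453 and d10_f_454 the first value was 1.14 with an adjusted p of 0.00143, which no longer passed, and leaving out the Day 12 pair as well brought the adjusted p back to 0.000755. Mean CTSL was 186 ± 45.7, 436 ± 100 and 5283 ± 3404 CPM on the 3 days.

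CTSZ, an exopeptidase, was highest on Day 10, with 89.6 ± 17.1 CPM on Day 8, 700 ± 222 CPM on Day 10 and 217 ± 143 CPM on Day 12. The Day 10 embryos reached from 481 to 1110 CPM and lay above all Day 8 embryos (61.1 to 115 CPM), while Day 12 embryos (84.6 to 496 CPM) overlapped both. CTSZ rose by a log2 fold change of 2.97 ± 0.28 and then fell by 1.69 ± 0.27 (adjusted p = 3.21e-10 and 2.19e-06). CTSV, a relative of CTSL, rose from 10.6 to 18.4 CPM on Day 8 to 39.2 to 137 CPM on Day 10 (log2 fold change 2.36 ± 0.22, adjusted p = 3.08e-10) and lay at 42.0 to 113 CPM on Day 12. CTSL and CTSV are close copies, both on chromosome 10, and reads that fit both could have been split between them.

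CTSB, one of the broadly expressed lysosomal cysteine proteases, rose from 69.3 ± 9.95 to 257 ± 109.4 CPM by Day 10 with no overlap (log2 fold change 1.89 ± 0.18, adjusted p = 4.54e-10), and its level was 391 ± 98.1 CPM on Day 12. CTSC, the dipeptidase that activates granule serine proteases, went the other way. All Day 8 embryos (66.3 to 117 CPM) lay above all Day 10 embryos (8.90 to 29.1 CPM), and CTSC fell by 2.41 ± 0.23 (adjusted p = 4.28e-10). On Day 12 it was at 31.7 ± 12 CPM, still below every Day 8 embryo. CTSW, known from cytotoxic lymphocytes, was low. It was above 3 counts in 9 of 10 embryos on Day 8 and fell from 1.01 ± 0.665 CPM to 0.0587 ± 0.0593 CPM by Day 10, and on Days 10 and 12 only 1 embryo each was above 3 counts. CTSF and CTSH rose in the first interval as well, with log2 fold changes of 1.09 ± 0.16 and 1.21 ± 0.16 (adjusted p = 1.4e-06 and 1.3e-07), and CTSF did not pass without the Day 10 pair. CTSA, CTSK and CTSS were not called in either interval.

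The 3 cystatins did not move together. CSTB, an inhibitor of the cytosol, was at 207 ± 24, 257 ± 27.6 and 129.3 ± 57.9 CPM and passed in neither interval, although without d12_f_245 and d12_f_271 its drop from Day 10 to Day 12 did pass (log2 fold change -1.10, adjusted p = 2.42e-07). CST6, a secreted inhibitor with strong action on cathepsins L and V, rose from 33 ± 4.73 to 77.8 ± 23.7 CPM without overlap (log2 fold change 1.24 ± 0.20, adjusted p = 4.38e-06) and was at 71.7 ± 29.9 CPM on Day 12. CST3, the main secreted cystatin of body fluids, rose in the second interval, from 3.41 to 8.69 CPM on Day 10 to 16.4 to 39.1 CPM on Day 12 (log2 fold change 2.44 ± 0.17, adjusted p = 7.77e-14).

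**Figure D2:**
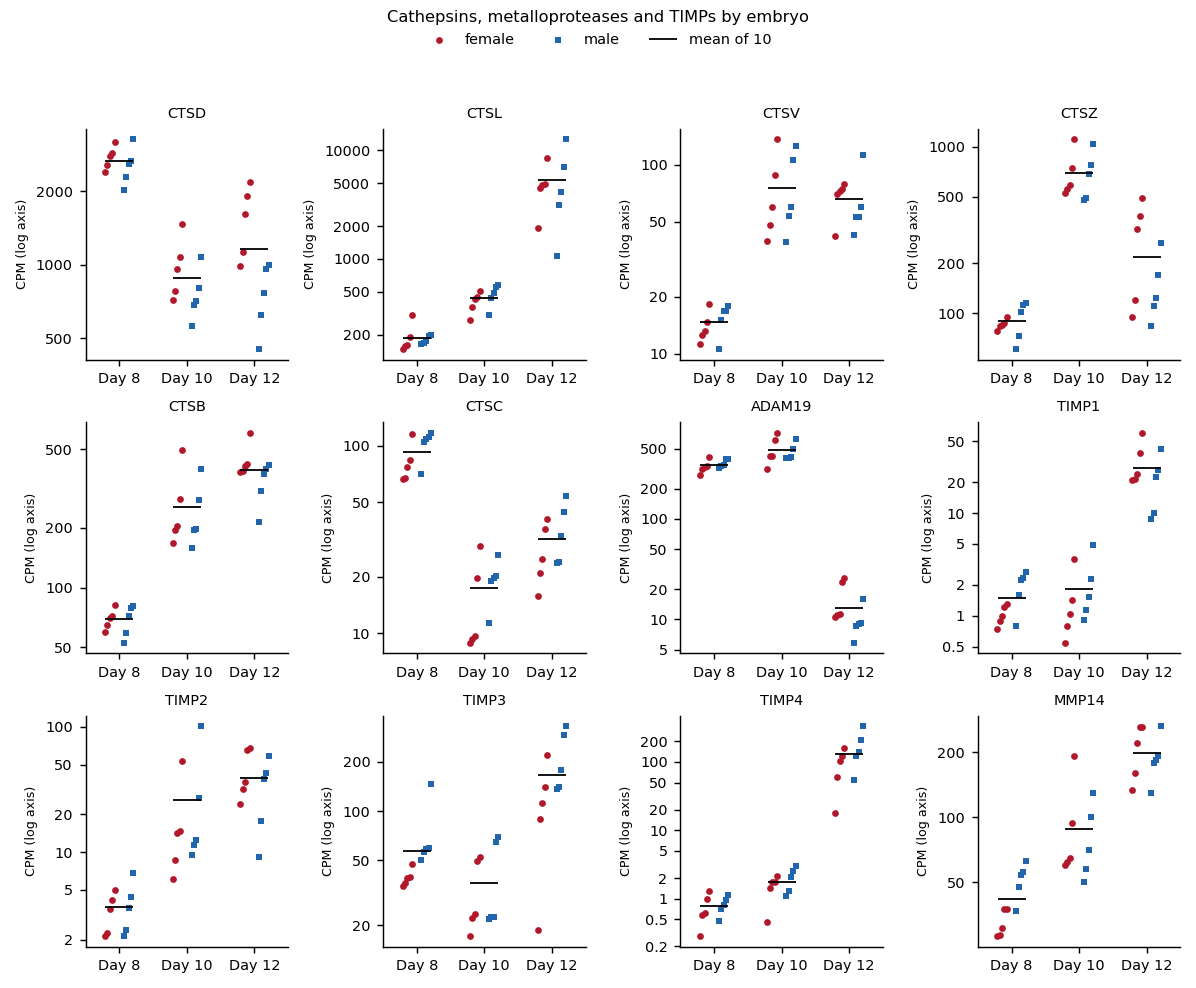
CPM on a log axis for 12 members, with 1 point per embryo (circles female, squares male, 5 of each per day) and a bar at the mean of the 10 embryos; points are offset sideways only to separate them. CTSD is highest on Day 8, CTSZ on Day 10 and CTSL on Day 12, and ADAM19 is at 25.6 CPM or lower in every Day 12 embryo.

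The metalloproteases numbered 25, of which 7 rose and 1 fell in the first interval and 11 rose and 4 fell in the second. Of the 10 MMPs, 4 rose from Day 8 to Day 10 and 7 from Day 10 to Day 12, and none fell in either. MMP7 (matrilysin) was at 0 in all Day 8 embryos and at 2 counts or fewer on Day 10. On Day 12 its lowest, median and highest values were 0.240, 2.11 and 10.9 CPM, at least 15.7-fold higher in the mean than 3 counts would give in any Day 10 library (adjusted p = 9.5e-08). MMP25, an MMP anchored in the membrane, was at 0.832 to 1.95 CPM on Day 10 and 1.97 to 65.1 CPM on Day 12 (log2 fold change 4.14 ± 0.36, adjusted p = 1.7e-11), ranges that just failed to meet. MMP14, the membrane enzyme that activates proMMP2, was at 41.9 ± 12.3, 88.2 ± 44.2 and 199 ± 51.6 CPM. It rose in both intervals (log2 fold changes 1.07 ± 0.21 and 1.17 ± 0.21, adjusted p = 8.91e-05 and 1.94e-05), though not in the first without the Day 10 pair, where the value was 0.74. MMP2 (gelatinase A), its substrate, rose in the second interval, from 2.38 ± 0.57 to 15 ± 9.22 CPM with no overlap (log2 fold change 2.65 ± 0.28, adjusted p = 1.35e-09).

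MMP15 rose in both intervals, to 52.4 ± 13.9 CPM on Day 12, and like MMP14 lost its first call without the Day 10 pair. MMP8, the neutrophil collagenase, rose from Day 8 to Day 10 by a log2 fold change of 6.51 ± 1.02 (adjusted p = 3.34e-06). On Day 8 it was at 0 in 7 embryos and above 3 counts in only 1, with 5 counts, so the size of this fold rests on very few counts. Its Day 10 values ran from 0.0565 over a median of 0.630 to 17.7 CPM, and d10_m_453 and d10_f_454 held the 2 highest (17.7 and 6.17 CPM). Without that pair the log2 fold change of MMP8 was 4.68 with an adjusted p of 2.7e-05. MMP13 and MMP17 were not called, and MMP11 and MMP23B were among the 7 that rose by Day 12. Without the embryos of both pairs MMP11 no longer passed in that interval (log2 fold change 0.96, adjusted p = 0.00258).

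The 8 ADAMs gave 2 rises and 1 fall in the first interval and 2 rises and 3 falls in the second. ADAM19 (meltrin beta) had the largest fall of all members from Day 10 to Day 12. Its lowest, median and highest values were 273, 335 and 410 CPM on Day 8 and 313, 423 and 719 CPM on Day 10, and then 5.87, 10.8 and 25.6 CPM on Day 12. ADAM19 fell by 5.20 ± 0.23 (adjusted p = 2.74e-18), and no Day 12 embryo came near the earlier range. ADAM28 moved opposite to it, from 0.109 to 1.05 CPM on Day 10 to 3.47 to 50.8 CPM on Day 12 (log2 fold change 5.45 ± 0.55, adjusted p = 4.56e-10), and on Day 8 it was above 3 counts in 1 embryo only. ADAM8 was at 23.4 ± 4.06, 48.1 ± 10.2 and 7.78 ± 2.81 CPM, with no overlap between any 2 days, and its fall of 2.64 ± 0.18 by Day 12 passed (adjusted p = 1.59e-13). Its rise by Day 10 had a log2 fold change of 1.04 ± 0.17, close to the limit of 1, and failed when d08_m_103, d10_f_454 or d10_m_453 was left out alone (lowest value 0.98). Without d10_f_454 and d10_m_453 together the value was 0.91.

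ADAM9 fell from 165 ± 27.1 to 76.4 ± 9.69 CPM by Day 10 (log2 fold change -1.11 ± 0.22, adjusted p = 8.73e-05). ADAM15 rose in both intervals, from 3.04 ± 1.31 to 7.62 ± 2.1 and 25 ± 10.6 CPM. ADAM10 and ADAM17, the main sheddases of cell surface proteins, were not called. ADAM10 was nevertheless far apart in 2 embryos: d12_f_245 and d12_f_271 had 6.94 and 3.30 CPM where the other 8 Day 12 embryos had 60.3 to 298 CPM and no earlier embryo was under 70.2 CPM. The same pair had the lowest ADAM9 of Day 12, at 13.7 and 10.7 CPM. These 2 libraries stood apart over all genes, and the part of that in the low ADAM10 was not tested.

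Of the 7 ADAMTS genes, which code for secreted matrix proteases, 1 rose in the first interval, and 2 rose and 1 fell in the second. ADAMTS9 rose from 39.9 to 90.5 CPM on Day 10 to 81.7 to 899 CPM on Day 12 (log2 fold change 2.70 ± 0.27, adjusted p = 5.36e-10). ADAMTS1 rose in the same interval and ADAMTS17 fell, the latter not without d12_f_245 and d12_f_271. ADAMTS13, the protease of von Willebrand factor, rose from 3.51 ± 0.547 to 8.26 ± 4.38 CPM by Day 10 (log2 fold change 1.24 ± 0.23, adjusted p = 3.11e-05). Its Day 10 mean rested partly on d10_f_454 with 19.9 CPM, and without that embryo the log2 fold change was 0.99, just under the limit. Without the Day 10 pair it was 0.89. The gene overlaps CACFD1, whose means of 3.41, 8.07 and 6.38 CPM were almost those of ADAMTS13, and reads from the 2 genes may not have been separated.

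All 4 TIMPs were higher on Day 12 than on Day 8. From Day 8 to Day 10 TIMP2 rose, and from Day 10 to Day 12 TIMP1, TIMP3 and TIMP4 did. TIMP4 had lowest, median and highest values of 0.282, 0.765 and 1.30 CPM on Day 8, 0.454, 1.77 and 2.96 CPM on Day 10 and 17.8, 123 and 334 CPM on Day 12. The last day was clear of both others, and the log2 fold change from Day 10 was 6.23 ± 0.40 (adjusted p = 1.66e-14). TIMP1 went from 0.739, 1.26 and 2.65 CPM over 0.546, 1.28 and 4.88 CPM to 8.78, 23.1 and 60.6 CPM, again without overlap on Day 12 (log2 fold change 3.90 ± 0.38, adjusted p = 3.31e-10). TIMP1 is the 1 member on the X chromosome.

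TIMP3, the inhibitor that binds to the matrix, was at 34.7, 48.5 and 147 CPM on Day 8, 17.1, 23.0 and 69.5 CPM on Day 10 and 18.7, 141 and 332 CPM on Day 12. On Day 10, d10_f_433, d10_f_454, d10_m_435 and d10_m_453 had 49.2 to 69.5 CPM and the other embryos 17.1 to 23.5 CPM. TIMP3 rose in the second interval (log2 fold change 2.19 ± 0.36, adjusted p = 4.27e-06) although d12_f_245, with 18.7 CPM, lay among the lowest Day 10 embryos. TIMP2 had 2.13, 3.55 and 6.77 CPM on Day 8, 6.11, 13.3 and 101 CPM on Day 10 and 9.15, 37.2 and 67.9 CPM on Day 12. Its rise by Day 10 had a log2 fold change of 2.83 ± 0.45 (adjusted p = 4.28e-06). d10_m_453 and d10_f_454 had 101 and 53.5 CPM where the others had at most 27.0 CPM. Without them the first rise was 1.83 (adjusted p = 2.38e-05) and the step to Day 12, which did not pass with them, passed at 1.59 (adjusted p = 9.43e-05).

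**Figure D3:**
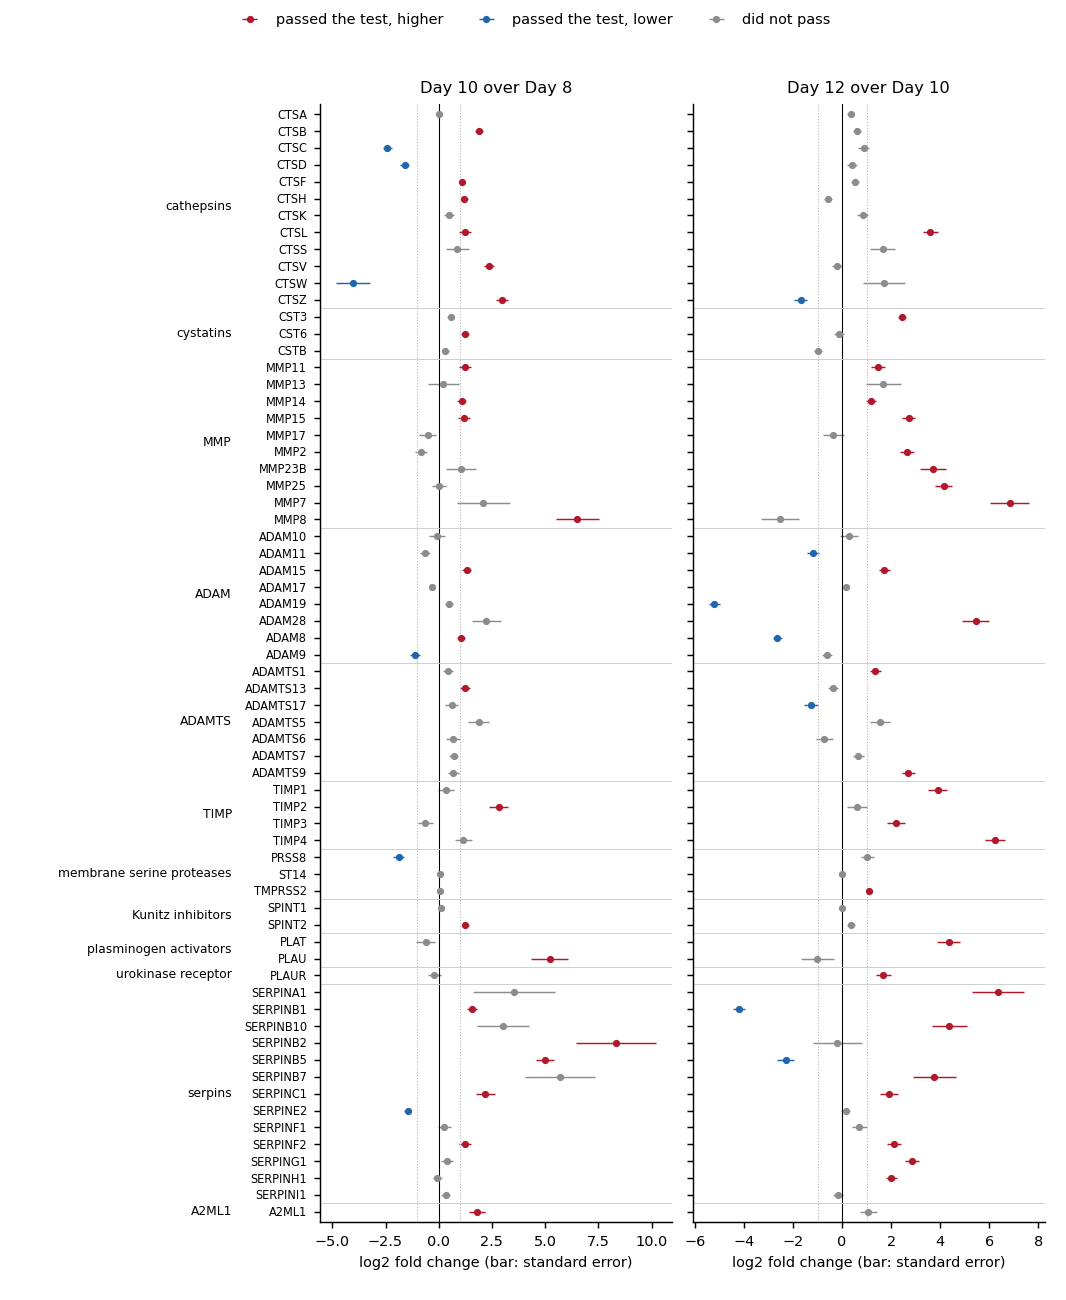
Points give the log2 fold change of 66 of the 67 members from Day 8 to Day 10 (left) and from Day 10 to Day 12 (right) with bars of 1 standard error from the fit of all 30 embryos; red and blue mark members that passed the test, gray those that did not, and dotted lines the fold limit. Each panel has its own horizontal scale. The MMPs and TIMPs that passed lie right of 0 in both panels.

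In the plasminogen activator system, the urokinase PLAU and the tissue-type activator PLAT turn plasminogen into plasmin, PLAUR holds urokinase at the cell surface, and SERPINB2 and SERPINE2 (protease nexin-1) block the activators. On Day 8, PLAU was at 0 in 8 of 10 embryos and above 3 counts only in d08_m_136, with 0.743 CPM. All Day 10 embryos had PLAU, with lowest, median and highest values of 0.454, 2.29 and 11.0 CPM, and it rose by a log2 fold change of 5.22 ± 0.86 (adjusted p = 7.44e-06), or of 8.38 without d08_m_136. On Day 12 the values were 0.123, 0.958 and 5.01 CPM. The step from Day 10 to Day 12 did not pass the test.

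PLAT rose in the second interval, from 0.273, 0.539 and 0.926 CPM on Day 10 to 1.15, 9.14 and 35.3 CPM on Day 12 without overlap (log2 fold change 4.34 ± 0.46, adjusted p = 1.47e-09). PLAUR rose in the same interval, from 1.14 ± 0.554 to 3.7 ± 1.88 CPM, with overlap (log2 fold change 1.69 ± 0.31, adjusted p = 2.08e-05). SERPINE2 fell from 93.1 ± 8.01 to 33.7 ± 13.3 CPM by Day 10 (log2 fold change -1.47 ± 0.18, adjusted p = 3.73e-08) and was at 37.1 ± 10.5 CPM on Day 12. Every Day 8 embryo had more SERPINE2 than any later embryo, with a lowest Day 8 value of 78.7 CPM.

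SERPINB2 was at 0 in all Day 8 embryos. On Day 10 it was above 3 counts in 3 embryos, and nearly all of the signal came from d10_m_453 (13.4 CPM) and d10_f_454 (3.70 CPM). The Day 10 mean was at least 9.07-fold above what 3 counts would give in any Day 8 library, and the test passed (adjusted p = 0.000663), but it failed when either of the 2 embryos was left out and when any single Day 8 embryo was. Without both, the adjusted p was 0.0223. On Day 12, 9 of 10 embryos were above 3 counts (median 1.17 CPM), and without the Day 10 pair SERPINB2 rose from Day 10 to Day 12 (log2 fold change 4.44, adjusted p = 3.54e-05), where it was -0.19 ± 0.99 with the pair.

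**Figure D4:**
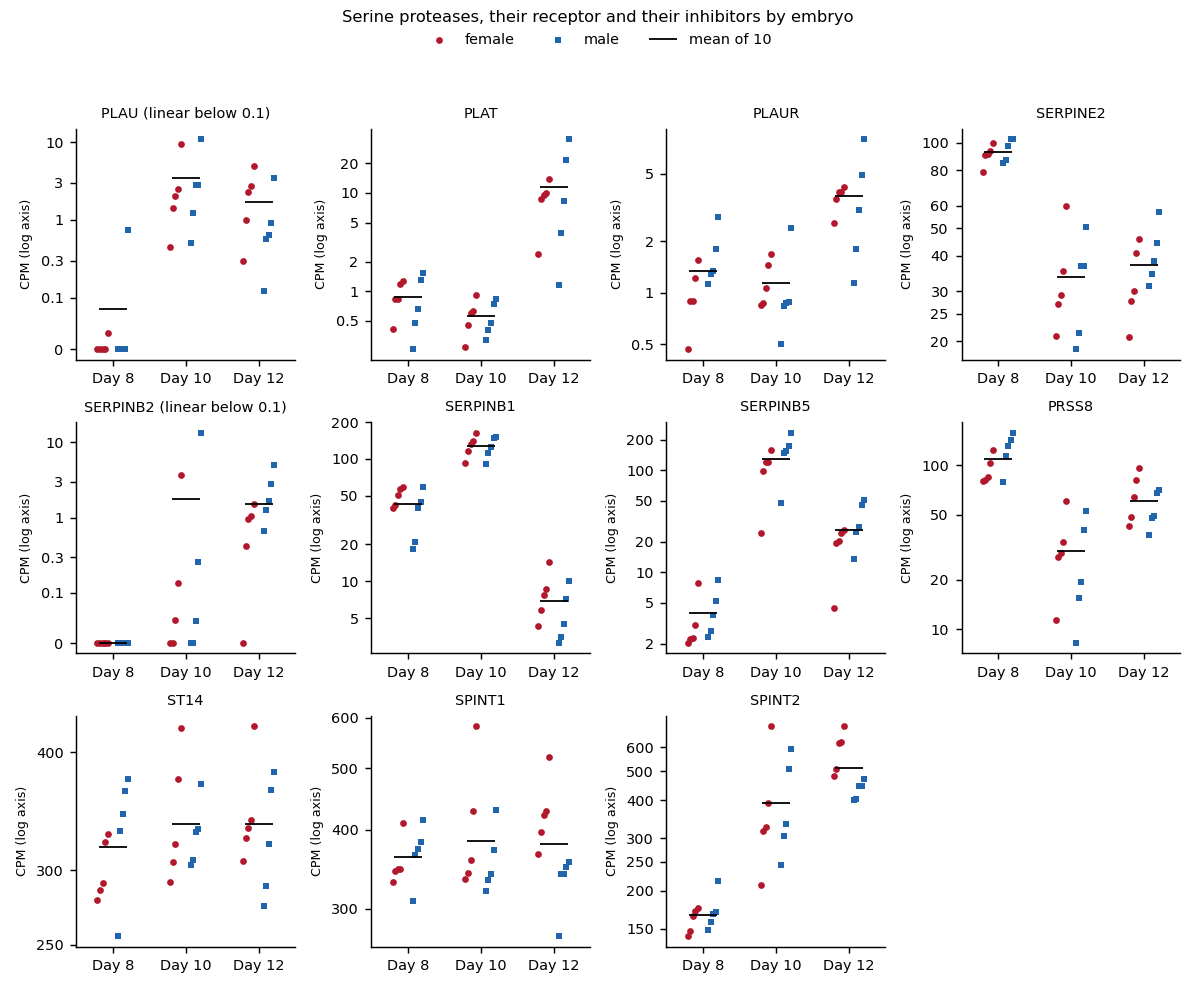
CPM for 11 serine proteases, inhibitors and the urokinase receptor, with 1 point per embryo (circles female, squares male, 5 of each per day) and a bar at the mean of the 10 embryos; axes are logarithmic, and those of PLAU and SERPINB2 are linear below 0.1 CPM so that 0 can be drawn. ST14 and SPINT1 keep nearly the same range on all days.

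Of the 14 serpins in all, 5 rose and 2 fell by Day 10, and 8 rose and 2 fell from Day 10 to Day 12. In clade B, SERPINB1, a cytosolic inhibitor of neutrophil proteases, and SERPINB5 (maspin) were highest on Day 10. SERPINB1 was at 18.3, 43.1 and 59.5 CPM on Day 8, 90.4, 129.2 and 164 CPM on Day 10 and 3.15, 6.50 and 14.4 CPM on Day 12, 3 ranges without overlap. It rose by a log2 fold change of 1.56 ± 0.23 and fell by 4.21 ± 0.26 (adjusted p = 1.13e-06 and 6.56e-15). SERPINB5 was at 2.04, 2.87 and 8.47 CPM on Day 8, 24.4, 135 and 234 CPM on Day 10 and 4.49, 24.7 and 51.6 CPM on Day 12. It rose by a log2 fold change of 4.99 ± 0.41 (adjusted p = 1.7e-11) and fell by 2.31 ± 0.36 (adjusted p = 1.55e-06). Its lowest Day 10 values, 24.4 and 48.1 CPM, were those of d10_f_433 and d10_m_435, and the next was 99.4 CPM.

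SERPINB7 and SERPINB10 were at 0 in every Day 8 embryo and above 3 counts in 2 and 1 of the Day 10 embryos, and both rose by Day 12, to 3.85 ± 2.89 and 0.919 ± 0.893 CPM. SERPINB7 had an adjusted p of 0.00125 in that interval without d12_f_245 and d12_f_271, and a log2 fold change of 8.41 (adjusted p = 1.71e-08) without the Day 10 pair, against 3.75 ± 0.88 with all embryos. Outside that pair only d10_m_321 held any SERPINB7 on Day 10 (0.0434 CPM), so the size of the 8.41 is not a measured fold. With SERPINB2 and SERPINB5 these genes lie in 1 cluster on chromosome 1, where SERPINB10 and SERPINB2 are 5006 bases apart. SERPINB2, SERPINB7 and SERPINB10 had no count on Day 8, whereas SERPINB5 did.

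SERPINC1 (antithrombin), an inhibitor known from plasma, rose in both intervals, from 0 to 0.156 CPM on Day 8 over 0.182 to 0.720 CPM on Day 10 to 0.360 to 2.81 CPM on Day 12 (log2 fold changes 2.19 ± 0.43 and 1.92 ± 0.36, adjusted p = 8.48e-05 and 3.55e-05). Its counts were few, at most 5 on Day 8, with 2 embryos above 3 counts, and at most 17 on Day 10. SERPINF2 (alpha-2-antiplasmin) rose in both intervals too, to 24 ± 15.2 CPM, the first with an adjusted p of 0.00227 without the Day 10 pair. SERPING1 (C1 inhibitor) rose by Day 12 to 7.06 ± 3.78 CPM without overlap. SERPINA1 (alpha-1-antitrypsin) was at 0 on Day 8, above 3 counts in 2 Day 10 embryos, and at a lowest, median and highest value of 0, 2.89 and 16.3 CPM on Day 12 (adjusted p = 2.02e-05 for the second interval), with 2 Day 12 embryos at 0. The summed hypoblast and blood markers also reached higher values on Day 12 than on Day 10 (above), and their part in these serpin levels was not tested.

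SERPINH1, the collagen chaperone, rose from 163 ± 21.8 CPM on Day 10 to 656 ± 368 CPM on Day 12 without overlap (log2 fold change 2.01 ± 0.22, adjusted p = 2.97e-09). The highest value, 1493 CPM, was that of d12_f_245. SERPINF1 and SERPINI1 were called in neither interval. A2ML1, an inhibitor that traps proteases of several classes, rose from 0.636 ± 0.339 to 2.24 ± 0.66 CPM by Day 10 (log2 fold change 1.80 ± 0.36, adjusted p = 0.000102) and was at 4.74 ± 3.25 CPM on Day 12.

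Among the membrane serine proteases and their Kunitz inhibitors, ST14 (matriptase) and SPINT1 (HAI-1) kept similar ranges on all days. ST14 ran from 255 to 375 CPM on Day 8, 292 to 424 CPM on Day 10 and 274.9 to 426 CPM on Day 12. SPINT1 ran from 309 to 414, 320 to 582 and 272 to 521 CPM. Neither was called in any comparison, with standard errors of 0.08 and 0.10 on log2 fold changes of -0.02 to 0.08. PRSS8 (prostasin), which acts in a cascade with matriptase, fell from 78.9, 108 and 158 CPM on Day 8 to 8.25, 28.3 and 60.8 CPM on Day 10 without overlap (log2 fold change -1.88 ± 0.27, adjusted p = 7.37e-07) and was at 37.8, 56.8 and 95.6 CPM on Day 12. SPINT2 (HAI-2) rose from 166 ± 21.1 to 393 ± 159 CPM (log2 fold change 1.24 ± 0.16, adjusted p = 2.09e-07), but without the Day 10 pair its value was 0.99, just under the limit, with an adjusted p of 5.27e-07. TMPRSS2, a transmembrane serine protease, rose in the second interval, from 316 ± 68.6 to 676 ± 166 CPM (log2 fold change 1.10 ± 0.12, adjusted p = 4.06e-09).

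The balance of protease and inhibitor was taken in each embryo as the log2 ratio of the summed CPM of both classes. A sum of CPM weighs long transcripts more, and no transcript lengths were used, so that a ratio has no meaning as a number of molecules. Its change between days also depends on transcript length where other genes come to make up the sum, so it is a change in CPM only. Over all 42 proteases and 24 inhibitors the 3 days gave 2.04 ± 0.13, 1.41 ± 0.20 and 1.98 ± 0.58 in turn, with ranges that overlapped (1.84 to 2.22, 1.11 to 1.85 and 1.01 to 2.99). Summed protease was 4876 ± 416, 4377 ± 662 and 9682 ± 3722 CPM, and summed inhibitor 1183 ± 82.0, 1664 ± 323 and 2317 ± 337 CPM. On Days 8 and 12 a single gene made up much of the protease sum, CTSD with 54.5% ± 4.07 of the CPM on Day 8 and CTSL with 49.8% ± 14.9 on Day 12. On Day 10 the largest shares were those of CTSD (20.6% ± 6.78) and CTSZ (15.8% ± 3.01). Without CTSD and CTSL, the ratio was 0.77 ± 0.07, 0.87 ± 0.13 and 0.49 ± 0.25, and with the mean log2 CPM of each class in place of sums it was 0.75, 0.65 and -0.16, so the higher ratio of Day 12 over Day 10 was turned around in both cases.

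Split by class, the ratios went in different directions. Cysteine cathepsins over cystatins were at 1.19 ± 0.21, 2.32 ± 0.31 and 4.64 ± 0.77, and no 2 days overlapped. Without CTSL the values were 0.61, 1.87 and 2.01, with Day 12 near Day 10, and as mean log2 CPM they were -0.85, -0.91 and -0.80. Without CSTB, the inhibitor of the cytosol, they were 3.94, 4.40 and 5.83, with a smaller step from Day 8 to Day 10. The MMP, ADAM and ADAMTS genes over the TIMPs were at 3.84 ± 0.48, 4.17 ± 0.77 and 1.65 ± 0.63, and all Day 12 embryos (0.71 to 2.43) lay below all embryos of Days 8 and 10 (lowest 2.70). Metalloprotease CPM was 991 ± 197 on Day 10 and 1144 ± 425 on Day 12 while TIMP CPM was 65.9 ± 48.7 and 365 ± 144. The similar metalloprotease sums were made up of different genes. Mean ADAM19 was 482 CPM on Day 10 and 13.1 CPM on Day 12, while mean ADAMTS9 was 63.4 and 412 CPM. Without ADAM19 the ratio was 3.07, 3.22 and 1.63 on the 3 days. Without TIMP3 the 3 days gave 7.17, 5.55 and 2.48, and as mean log2 CPM the ratio was -0.34 on Day 10 and -2.84 on Day 12.

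Serine proteases over serpins and Kunitz inhibitors were at -0.26 ± 0.09 on Day 8, -0.86 ± 0.22 on Day 10 and -0.65 ± 0.54 on Day 12. Days 8 and 10 did not overlap, and Day 12 overlapped both. Leaving out SERPINH1, SERPINB5 and SERPINF1, which are not known to inhibit proteases, gave 0.08, -0.45 and 0.10. Without SPINT1 the values were 0.51, -0.32 and -0.27. In 2 other settings Day 12 lay below Day 10. These were the ratio without TMPRSS2 (-1.04, -1.74 and -2.04) and that of mean log2 CPM (2.16, 2.05 and 1.75). ST14 and PRSS8 over SPINT1 and SPINT2 were at -0.31 ± 0.13, -1.05 ± 0.31 and -1.16 ± 0.21, with every Day 8 embryo above every later one. No test was run on any of these ratios.

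**Figure D5:**
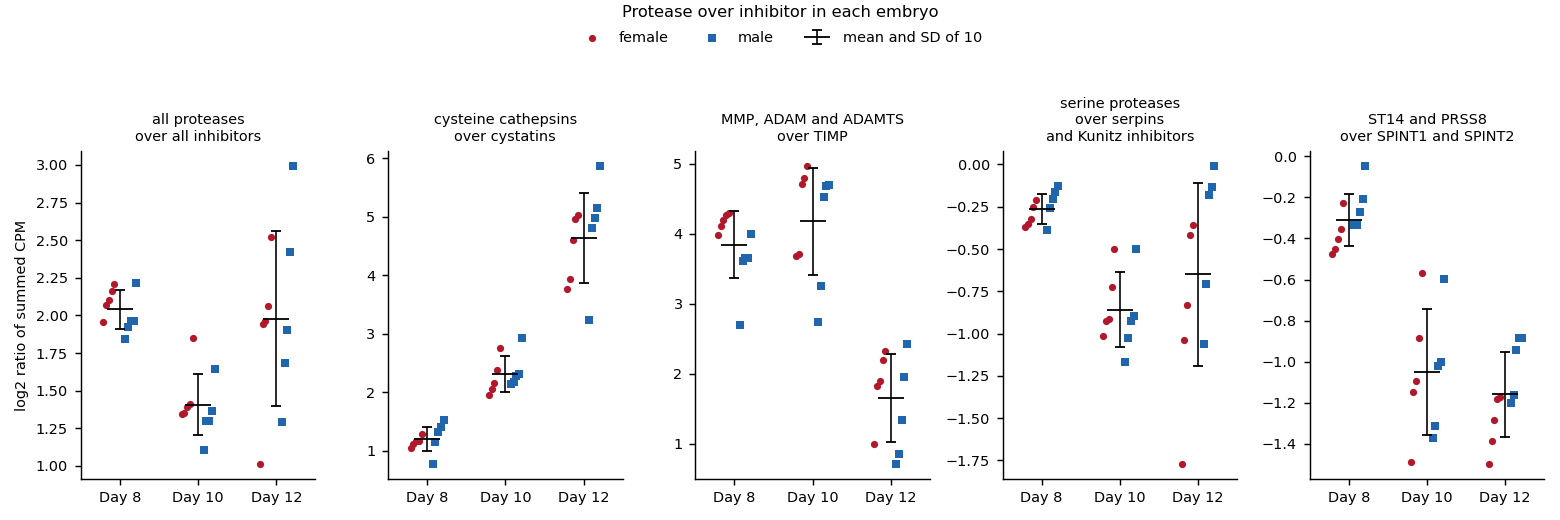
Log2 ratio of summed protease CPM over summed inhibitor CPM in each embryo (circles female, squares male, 5 of each per day) for all members and for 4 matched classes, with the mean and SD of the 10 embryos of a day; each panel has its own axis. Cysteine cathepsins over cystatins lie higher on each later day without overlap, and metalloproteases over TIMPs lie lower on Day 12 than in every earlier embryo.

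Other genes of extracellular proteolysis, from a list of 92 that the symbols above leave out, were tested where present. Of the 57 in the table, 10 rose and 3 fell from Day 8 to Day 10 (17.5% and 5.26%, where 9.88% and 4.2% of all genes did), and 24 rose and 6 fell from Day 10 to Day 12 (42.1% and 10.5%, against 14.9% and 8.39%). Their median log2 fold change was 0.43 and 0.83. TFPI2, a Kunitz inhibitor of plasmin, rose from 0.327 ± 0.187 to 9.08 ± 3.88 CPM in the first interval, and the metalloprotease MEP1B from 26.2 ± 10.4 to 278 ± 74.8 CPM. LGMN (legumain), which processes lysosomal cathepsins, fell from 2203 ± 353 to 479 ± 134 CPM, and the convertase PCSK5 from 5.59 ± 1.19 to 1.08 ± 0.388 CPM. In the second interval SLPI, an inhibitor of leukocyte elastase, went from at most 1 count to 6.16 ± 4.93 CPM, and FETUB from 3.04 ± 2.01 to 248 ± 248 CPM. DPP4, a membrane peptidase, fell from 15.6 ± 7.06 to 0.793 ± 0.647 CPM.

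Between the sexes, tested within each day on that day's own table, none of the 53, 53 and 62 members tested on Days 8, 10 and 12 passed an adjusted p of 0.05 in edgeR's quasi-likelihood test. The share of all genes called was 0.658%, 0.223% and 0.123%. At an unadjusted p under 0.05 there were 4, 1 and 8 members, against 4.59%, 2.36% and 22.7% of all genes. The robust GLM of edgeR called 4, 0 and 1 members and DESeq2 2, 0 and 1, where the robust GLM called 1.37%, 0.36% and 0.827% of all genes and DESeq2 1.13%, 0.454% and 1.63%. The members in the following sentences were chosen after their values were seen.

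On Day 8, MMP14 and TIMP3 had the lowest p-values of the members, while the log2 fold change of TIMP1 (-0.88 ± 0.32, adjusted p = 0.723) was also larger than that of MMP14. TIMP3 was at 34.7, 36.0, 38.7, 39.4 and 47.2 CPM in the females and 49.9, 55.7, 58.9, 59.3 and 147 CPM in the males, so the groups did not overlap. Its log2 fold change of female over male was -0.92 ± 0.27, with an adjusted p of 0.405 in the quasi-likelihood test and 0.0255 in DESeq2. MMP14 was at 28.2, 28.5, 30.6, 37.5 and 37.7 CPM in the females and 36.8, 47.7, 54.1, 55.6 and 62.5 CPM in the males, with an overlap of 1 male (log2 fold change -0.66 ± 0.14, adjusted p = 0.0678, and 0.0016 in DESeq2). Without d08_m_136 the quasi-likelihood test called MMP14 (adjusted p = 0.0128). The robust GLM called CTSC and PRSS8 as well, both lower in females.

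On Day 12, CTSD was at 984.8, 1129, 1622, 1910 and 2192 CPM in the females and 451, 620, 765, 959 and 994.5 CPM in the males. The lowest female lay below the highest male, and the log2 fold change of 1.09 ± 0.28 had an adjusted p of 0.198, against 0.0269 in DESeq2 and 0.0251 in the robust GLM. One fit of all 30 embryos with a common estimate of the spread called 6 members on Day 12, where it called 20.3% of all genes: CTSD, CSTB, SPINT1, ADAM19 and SERPINF2 were higher in females and ADAM17 in males. Both Day 12 libraries that stood apart, d12_f_245 and d12_f_271, were female. They held 1622 and 2192 CPM of CTSD and the 2 lowest values of ADAM17, 26.6 and 28.1 CPM. Without them the same fit called 0 members and 0.214% of all genes, with 9 members at an unadjusted p under 0.05. The quasi-likelihood test on the Day 12 table and DESeq2 also called 0 members without the pair (6 and 8 at an unadjusted p under 0.05). The robust GLM then called 2, ADAM19 and SERPINF2 (adjusted p = 0.0457 and 0.0157), and 0.311% of all genes. CTSD had a log2 fold change of 0.83 without the pair in the quasi-likelihood test (adjusted p = 0.627). Whether the sex difference itself changed between days was not tested.

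In the pig genome (Sscrofa11.1), beside the SERPINB genes, MMP7, MMP8 and MMP13 lie together on chromosome 9, CTSK and CTSS 10304 bases apart on chromosome 4, SERPINF1 and SERPINF2 6721 bases apart on chromosome 12, and ADAMTS1 and ADAMTS5 on chromosome 13. CTSL lies at chr10:27668523-27674705, CTSD at chr2:1188548-1197642, TIMP4 at chr13:68179803-68191199, PLAU at chr14:76629313-76635173 and ADAM19 at chr16:65715445-65814761. The spans of 15 members overlap another listed gene, and whether reads were counted by strand is not given in the sources used here, so their counts may hold reads of the other gene. PLAU overlaps CAMK2G, at 38.0, 75.7 and 29.4 CPM on the 3 days, and TIMP4 overlaps SYN2, at no more than 1.02 CPM on any day. ADAM19 overlaps NIPAL4, at 0.175, 1.40 and 4.28 CPM. TIMP1 overlaps SYN1, at 0.880, 0.470 and 1.55 CPM.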

How the data were processed

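RNA was measured by stranded mRNA sequencing (100-bp single reads) of 30 single embryos, 5 female and 5 male on each of 3 days. Per the study's methods, the authors clipped adapters and low-quality ends, cut 3 bases off the start of each read and mapped the rest to Sscrofa 11.1 with the NCBI annotation. They deposited raw counts per gene, in 1 table of all embryos and 1 table per day; the aligner, the counter, the use of strand and the low-count cutoff are not given in the sources used here. Totals of 6068212 to 34002508 counts per embryo limit the precision of low genes, and 3 counts or fewer were taken as the floor. NCBI symbols were matched to the gene IDs.

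Counts were scaled by TMM and tested across all genes by edgeR's quasi-likelihood F test (edgeR 4.0.16 in R 4.3.3) with Benjamini-Hochberg adjustment. Days were compared in 1 fit of all embryos (adjusted p under 0.001 and a log2 fold change beyond 1), sexes within each day (adjusted p under 0.05). Standard errors are the log2 fold change divided by the root of F. Alternatives were DESeq2 1.42.0, a robust GLM, other scaling and filters, a sex term, 1 sex alone, and leaving out embryos, and those that leave out the pairs that stood apart were chosen after seeing the data. The code was tested on simulated data.

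Genes to be named one by one were 34: the 8 members with the largest change in each direction and interval among those called without overlap, the 5 with the highest CPM on each day, the TIMPs, the plasminogen activator system, and ST14, PRSS8, SPINT1 and SPINT2. The values of 1 member are not reported here; it stays in the fits, counts and sums. Other members that are named were chosen after their values were seen. The set of genes and the lists were chosen with earlier results of these data known. Transcript lengths and sequences were not used here.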

Additional observations from a re-analysis of the deposited data

Results flagged for a closer look

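Tests covered 114 groups of 10 embryos (the named members and the balances, per day). In 21 of them, 1 embryo had a gap to the next beyond Dixon's 95% critical value for 10 values. All but 1 of the 21 were high values. The critical value is set for independent, normally distributed values. Here the groups share embryos, the balances are built from the members, and MMP7 and SERPINB2 were at 0 in all Day 8 embryos. The 21 therefore cannot be compared with a rate expected by chance.

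On Day 8, d08_m_136 held 4 of them: ADAM9 at 234 CPM, PLAU at 0.743 CPM, TIMP3 at 147 CPM, and the lowest ratio of metalloproteases over TIMPs, at 2.70. In d08_m_121, SERPINH1 was at 282 CPM and SPINT2 at 216 CPM. ADAM28 was at 0.548 CPM in d08_m_103, CTSL at 306 CPM in d08_f_105 and CTSW at 2.70 CPM in d08_f_109.

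On Day 10, d10_f_454 was far above the others in ADAMTS13 (19.9 CPM), SPINT1 (582 CPM) and MMP7 (0.103 CPM, within the floor of 3 counts), and d10_m_453 in SERPINB2 (13.4 CPM) and TIMP2 (101 CPM).

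On Day 12, d12_m_276 had ADAM28 at 50.8 CPM and MMP25 at 65.1 CPM, d12_m_275 had CTSV at 112.5 CPM and MMP7 at 10.9 CPM, and d12_f_289 had CTSB at 605 CPM. CTSW was at 1.47 CPM in d12_m_307, and SERPINH1 at 1493 CPM in d12_f_245. The causes of these values were not tested.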

How the results depend on the processing

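Against 30, 34 and 49 members called between days, female embryos alone gave 16 and male embryos alone 13 for Day 10 over Day 8, with 53.8% of the male calls higher against 76.7%, and testing against a fold limit of 1 (log2) gave 9 there and 22 for Day 12 over Day 10. Library size alone as scaling moved the median of all genes to -0.15 for Day 10 over Day 8 and 0.24 for Day 12 over Day 10. Leaving out 1 embryo at a time gave 25 to 31, 32 to 35 and 48 to 50 calls. Without d10_f_454 and d10_m_453, Day 10 over Day 8 gave 21 calls (66.7% higher).

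Between the sexes, where the quasi-likelihood test called 0 members on each day, the robust GLM called 4 and DESeq2 2 on Day 8, both called 1 on Day 12, and 1 fit of all 30 embryos called 6 on Day 12. Without d12_f_245 and d12_f_271 the robust GLM called 2 on Day 12, and the other 3 fits 0. Leaving out 1 embryo at a time gave 0 to 1 calls on Day 8 and 0 on Days 10 and 12.

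The balance over all members was 2.29 on Day 8, 1.70 on Day 10 and 2.505 on Day 12 without SERPINH1, SERPINB5 and SERPINF1. Day 12 was then the highest of the 3 days, where Day 8 was the highest with all members. On the 3 days the balance was 2.51, 1.64 and 1.18 without CTSL and SPINT1, and 0.75, 0.65 and -0.16 as mean log2 CPM. On Day 12 it was 0.92 without CTSL. Leaving out 1 embryo at a time gave 2.02 to 2.06, 1.36 to 1.44 and 1.87 to 2.09.

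SERPINB2 changed direction for Day 12 over Day 10, from -0.19 to 3.52 in the robust GLM, 0.13 with library size alone, 0.010 in females alone, 0.061 without the Day 12 pair, 4.44 without the Day 10 pair and 4.69 without both. Leaving out 1 embryo at a time gave -0.60 to 1.76, positive without d10_m_453. The cause was not tested.

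No paired analysis was possible because embryo numbers are not shared between groups and the labels do not give the litter. Ratios per kilobase were not run.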
